A study of Mus musculus with 10 samples.

Results

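The genes described here read methylated cytosine in DNA or take part in its removal by base excision, and they were followed in mouse embryonic stem (ES) cells that lack Tet1, Tet2 or both. They are the DNA glycosylases Tdg, Smug1 and Neil1, the methyl-CpG binding domain genes Mbd1, Mbd2, Mbd3 and Mbd4, and Gadd45a and Apobec1. Every probe that the scanner files name after one of these 9 genes was taken, which gave 15 probes of 39429 on the array. Of the 15, 14 passed the filter on dim probes, as did 25869 probes in all, and each of the 9 genes had a tested probe, among 20666 genes that did.

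Tet1, Tet2 and Tet3 encode dioxygenases that turn 5-methylcytosine into 5-hydroxymethylcytosine and then into formyl- and carboxylcytosine. Tdg cuts the last of these forms out of DNA, and the resulting gap is closed by an endonuclease, a polymerase and a ligase. The methyl-CpG binding domain proteins act on the other side of the pathway: Mbd1 and Mbd2 bind methylated CpG sites, whereas mammalian Mbd3 has largely lost that preference and sits in the repressive NuRD complex. ES cells use both the Tet enzymes and NuRD, and the series asked how expression changes when Tet enzymes are lost.

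RNA was measured on 10 two-colour Agilent arrays in 11 labelled ES lines, each derived from mice on a C57/BL/6 mixed background. The mutant lines were 4 Tet1/Tet2 double knockout lines (DKO; 51 and 61 male, 60 and 59 female), 1 male Tet2 knockout line (T2KO 16) and 2 male Tet1 knockout lines (T1KO 99 and 65). The 4 wild-type lines (WT) were 6 and 92, both male, and 7 and 94, both female. All lines grew with LIF on irradiated feeder cells, and a preplating step separated the feeders ahead of RNA extraction. Each DKO line was hybridised in Cy5 against a same-sex WT line in Cy3, which gave the pairs 51/6, 61/92, 60/7 and 59/94, and T2KO 16 in Cy5 was hybridised against T1KO 65 in Cy3. T1KO 99 was in Cy3 on 2 arrays whose Cy5 sample the labels leave out for its genotype. The labels do not say whether lines of a genotype share parents, so p-values measure only the spread between these lines.

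A level below is a normalized log2 intensity and a ratio is a difference of log2 levels, so that 1 unit is a doubling. The 3 pairs 51/6, 59/94 and 16/65 were each hybridised on 2 arrays, and these repeats were averaged. Gene spots that the scanner software found well above background made up 55.2% to 61.5% in Cy3 and 62.6% to 69% in Cy5 on each array, and 0 were saturated. The genotypes were seen in the targets: on each gene's brightest probe the mean DKO over WT ratio was -2.11 for Tet1 and -2.10 for Tet2, with adjusted p = 0.00769 and 0.0223, and 0.05 for Tet3, with adjusted p = 0.664. All 10 ES cell markers examined, Pou5f1 and Sox2 among them, were well above background in each of the 11 lines. So were all 12 markers of feeder fibroblasts, such as Col1a1 and Fn1, and none of them was at 0. The log2 of the summed feeder marker level was 16.69 to 17.10 in DKO lines, 17.02 in T2KO, 16.73 to 17.06 in T1KO and 16.74 to 17.38 in WT lines. Fn1, the brightest of the 12 in every line, weighs most in this sum, at 16.03 in T2KO, 15.13 in DKO 60 and 15.46 in WT 7. The mean level of the 12 was 12.03 to 12.68 in DKO lines, 11.99 in T2KO, 11.98 to 12.42 in T1KO and 11.78 to 12.70 in WT lines. By pair, the median ratio of the feeder markers was 0.91 in 60/7, where 11 of 12 were above 0, against -0.62 in 61/92, -0.10 in 51/6 and -0.05 in 59/94. That of the ES cell markers was 0.51 in 16/65 and lay between -0.21 and 0.08 in the other pairs. The male pairs, the female pairs and the arrays with T1KO and T2KO each lay on a slide of their own, so slide cannot be told apart from sex or from single against double knockout. No dye was swapped, so dye cannot be told apart from genotype in DKO over WT. Every labelled Cy5 line lacks Tet2 and no Cy3 line does, so over the 11 lines dye cannot be told apart from Tet2 loss.

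A selection of the probes is printed as the array's design gives them, each 60 bases long. CpG dinucleotides, the usual place of cytosine methylation in mammals, are in capitals. The Tdg probe lies at chr10:82110701-82110760 on the + strand, and the Neil1 probe at chr9:56991288-56991347, the Mbd3 probe at chr10:79856639-79856698 and the Mbd4 probe at chr6:115792515-115792574 lie on the - strand (design positions on mm9). Only probes with at least 1 of 3 reading frames free of stop codons could be printed, so this is no evidence of coding sequence. No exon annotation was used.
Tdg A_55_P2044091: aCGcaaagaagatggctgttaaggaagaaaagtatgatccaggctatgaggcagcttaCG
Neil1 A_55_P2099415: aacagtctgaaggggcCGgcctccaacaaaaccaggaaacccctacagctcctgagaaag
Mbd3 A_55_P1960873: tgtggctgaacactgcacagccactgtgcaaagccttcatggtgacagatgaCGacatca
Mbd4 A_51_P203192: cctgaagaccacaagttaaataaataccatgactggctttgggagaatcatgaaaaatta

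None of the 14 probes passed the threshold in DKO over WT, which does not show that every difference was small. The 9 genes are thus described by their levels and intervals. Over the 4 pairs, the mean DKO over WT ratio lay between -0.29 (Neil1) and 0.31 (Gadd45a), and limma's adjusted p ran from 0.0956 to 0.984. The threshold was an adjusted p under 0.05, which 4.04% of all tested probes passed (1046 of 25869, 643 higher and 403 lower in DKO). At an unadjusted p under 0.05 the count was 4 of 14, which were Neil1, a probe of Mbd1, a probe of Mbd3 and Mbd4, all lower in DKO; over all probes it was 26.1%. The ratio was below 0 for 11 of the 14 probes and for 46.6% of all probes. This count turned on the scaling: with arrays centred on their median ratio in place of loess, 2 of the 14 (Neil1 and Mbd1 A_55_P2111649) and 25.6% of all probes were below 0, and the median of all probes was 0.21. Relative to the median of all probes, 11 of the 14 were lower with loess and 9 of the 14 with median centring. The median ratio of the 14 was -0.11, against 0.02 over all tested probes, and the median absolute ratio was 0.17 against 0.14. The spread between pairs was ordinary: the median SD of the 4 ratios was 0.17 for the 14 probes and 0.17 for all probes.

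**Figure D1:**
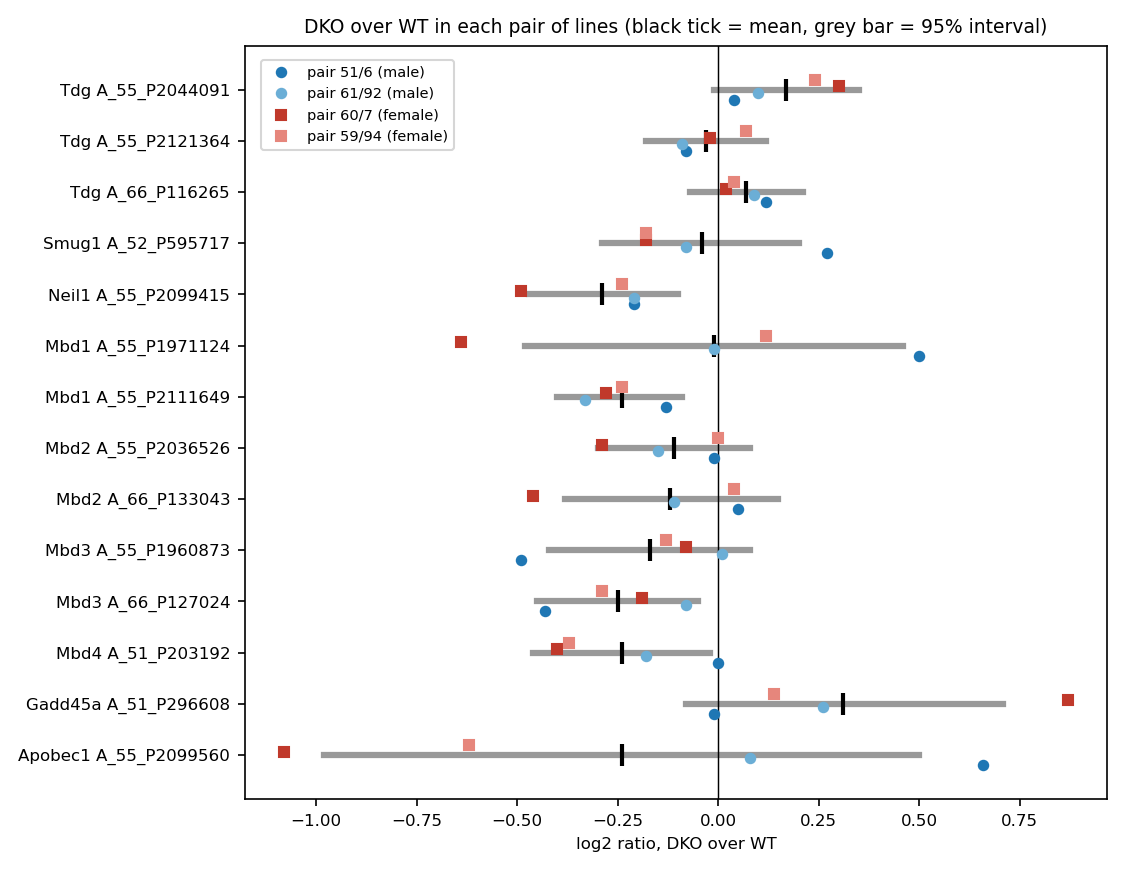
Log2 ratio of DKO over WT (horizontal axis) for each of the 14 tested probes (rows), with 1 point for each pair of lines, the mean as a black tick and its 95% interval as a grey bar. The intervals of Neil1, Mbd1 A_55_P2111649, Mbd3 A_66_P127024 and Mbd4 lie below 0, and the points of Apobec1 are the most widely spread, from -1.08 to 0.66.

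Tdg, the glycosylase that removes formyl- and carboxylcytosine, was read by 3 probes that differed little between genotypes. The probe printed above had levels of 9.63, 9.75, 9.99 and 9.83 in DKO lines 51, 61, 60 and 59. It stood at 9.66 in T2KO, at 9.66 and 9.70 in T1KO 99 and 65, and at 9.59, 9.66, 9.68 and 9.59 in WT lines 6, 92, 7 and 94. The 3 highest levels were DKO lines, while DKO 51 lay among the WT lines. Its ratio was above 0 in 4 of 4 pairs (0.04, 0.10, 0.30 and 0.24), with a mean of 0.17 ± 0.0711 (SE) and adjusted p = 0.211. With median centring it was 0.44 with adjusted p = 0.0068, or 0.22 relative to the median of all probes. A second probe, A_66_P116265 at chr10:82113115-82113174, was also above 0 in all 4 pairs, with a mean of 0.07, and the remaining one, A_55_P2121364 at chr10:82112994-82113053, gave -0.03. A ratio above 0 in 4 of 4 pairs was found for these 2 of the 14 probes and for 20.0% of all probes. Over the 11 lines the levels of the 3 Tdg probes correlated with each other at -0.12, -0.10 and 0.00, so the probes did not follow a common pattern. The 95% intervals of their ratios together spanned 0.88-fold to 1.27-fold of WT.

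Neil1 encodes a glycosylase for oxidised bases, and its single probe was lower in the DKO line of each pair. Its levels were 7.88, 7.93, 7.43 and 7.57 in DKO lines 51, 61, 60 and 59 and 7.61 in T2KO. They were 8.10 and 7.94 in T1KO 99 and 65 and 8.08, 8.14, 7.92 and 7.80 in WT lines 6, 92, 7 and 94. Every DKO line lay below its own WT partner, but the male DKO lines were level with the female WT lines. The ratios of -0.21, -0.21, -0.49 and -0.24 gave a mean of -0.29 ± 0.0738 (SE), or 1.22-fold lower, with adjusted p = 0.0966 and a 95% interval of 0.721-fold to 0.934-fold of WT. In the pair 60/7, where Neil1 was lowest, feeder markers had their median ratio of 0.91, and the part of these in the Neil1 ratio was not tested; without that pair the mean was -0.22. In these bulk samples, fewer cells of a type and less RNA per cell cannot be told apart. T2KO over T1KO, with the same dyes, gave -0.33 with adjusted p = 0.446. When normexp was fitted on all spots, T2KO over T1KO was -0.02. The estimate for Tet1 loss with the dye cancelled was 0.06. It is the male DKO over WT mean minus the T2KO over T1KO ratio, divided by 2. This estimate takes the effects of Tet1 loss and Tet2 loss as additive on the log scale, which was not tested.

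Smug1, a uracil and hydroxymethyluracil glycosylase, had 2 probes of which 1 gave a signal. The probe A_52_P595717 at chr15:102984194-102984253 had levels of 9.59, 9.43, 9.70 and 9.33 in DKO lines 51, 61, 60 and 59 and 9.91 in T2KO. It had 9.83 and 9.76 in T1KO 99 and 65 and 9.32, 9.52, 9.89 and 9.51 in WT lines 6, 92, 7 and 94. DKO and WT lines overlapped throughout, with a mean ratio of -0.04 and adjusted p = 0.814. T2KO and both T1KO lines lay above WT 6, 92 and 94 and near WT 7. The other probe, A_55_P2240050 at chr15:102993784-102993843, was well above background in 0 of 18 labelled channels and was not tested. Its levels were 6.19 to 6.30 in DKO lines, 6.30 in T2KO, 6.10 to 6.64 in T1KO and 6.40 to 6.62 in WT lines. The DKO over WT ratios of this undetected probe were -0.15, -0.36, -0.20 and -0.34, and they are not read as expression. Its sequence was found in the RefSeq window before the start of Smug1 (GRCm38.p6, chr15:103163285-103163534, - strand), from 128 to 69 bases upstream of that start. The 250 upstream bases are shown because they place the undetected probe, which is in capitals.
Smug1 upstream window: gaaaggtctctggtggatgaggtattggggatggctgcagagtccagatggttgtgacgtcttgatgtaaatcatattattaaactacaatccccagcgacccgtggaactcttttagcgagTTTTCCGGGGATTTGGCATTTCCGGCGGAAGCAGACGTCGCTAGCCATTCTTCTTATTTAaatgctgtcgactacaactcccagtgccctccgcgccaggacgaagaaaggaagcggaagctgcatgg

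Mbd4 joins a methyl-CpG binding domain to a glycosylase that acts on thymine and uracil mispaired with guanine. Its probe had levels of 9.32, 9.11, 9.30 and 9.15 in DKO lines 51, 61, 60 and 59, 9.62 in T2KO and 9.40 and 9.44 in T1KO 99 and 65. The WT lines 6, 92, 7 and 94 had 9.32, 9.29, 9.71 and 9.52. The female DKO lines lay below both female WT lines, while in males DKO 51 and WT 6 were equal to 2 decimals. The share of all probes with this order of the female lines was not counted. The ratios of 0.00, -0.18, -0.40 and -0.37 gave a mean of -0.24 ± 0.0883 (SE), with adjusted p = 0.17. With median centring the mean was 0.01, or -0.20 relative to the median of all probes. Every DKO line lay below T2KO, and male DKO over T2KO was -0.41 with adjusted p = 0.398.

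Mbd3, the NuRD subunit, was read by 2 probes that gave different patterns over the lines. Its brighter probe, A_66_P127024 at chr10:79855402-79855461, had levels of 14.77, 14.95, 14.81 and 14.71 in DKO lines 51, 61, 60 and 59 and 14.85 in T2KO. It had 15.15 and 15.07 in T1KO 99 and 65 and 15.20, 15.03, 15.00 and 15.00 in WT lines 6, 92, 7 and 94. It was the only one of the 14 on which all 4 DKO lines lay below all 4 WT lines, a separation that 5.86% of all probes showed; on 0 of the 14 did all DKO lines lie above all WT lines, against 7.41%. T2KO lay among the DKO lines and both T1KO lines lay among the WT lines, so every labelled Cy5 level was below every Cy3 level. This split cannot tell dye from Tet2 loss, and its share over all probes was not counted. The ratios of -0.43, -0.08, -0.19 and -0.29 gave a mean of -0.25 ± 0.078 (SE), or 1.19-fold lower, with adjusted p = 0.132. With arrays centred on their median ratio in place of loess, this ratio was 0.33 with adjusted p = 0.024, while the median of all probes moved to 0.21; relative to that median it was 0.12.

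The other Mbd3 probe, printed above, had levels of 11.53, 11.77, 11.26 and 11.24 in DKO lines 51, 61, 60 and 59. It had 11.27 in T2KO, 11.30 and 11.29 in T1KO 99 and 65 and 12.02, 11.76, 11.34 and 11.37 in WT lines 6, 92, 7 and 94. Its levels followed the slide. They were 11.53 to 12.02 on the slide of the male pairs, 11.24 to 11.37 on that of the female pairs and 11.27 to 11.30 on that of T2KO and T1KO. Its DKO over WT ratio, taken within arrays, was -0.17 with adjusted p = 0.332. T1KO over male WT, taken across slides, was -0.60 with adjusted p = 0.236, against -0.01 for the brighter probe of the gene. The levels of the 2 probes correlated at 0.45 over the 11 lines.

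**Figure D2:**
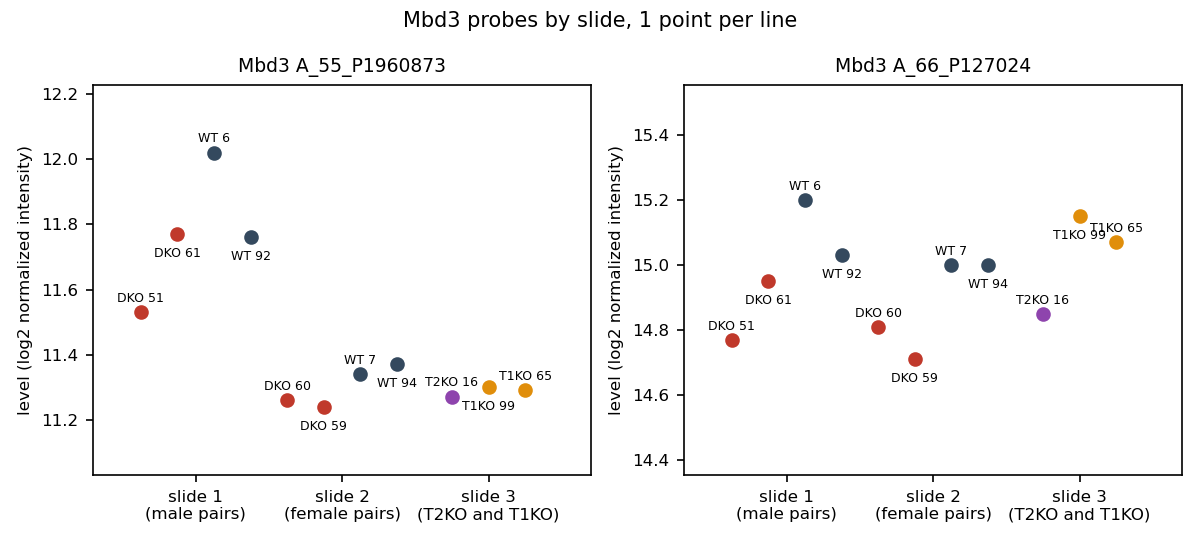
Normalized log2 level (vertical axis) of the 2 Mbd3 probes in each of the 11 lines, arranged by the slide that carried the line's arrays. On A_55_P1960873 the 4 lines of slide 1 lie above all others, whereas on A_66_P127024 the DKO lines and T2KO lie below WT and T1KO on every slide.

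Mbd1 and Mbd2, readers of methylated CpG, had 2 probes each. Mbd1 A_55_P2111649 at chr18:74437020-74437079 had 7.40, 7.22, 7.03 and 7.00 in DKO lines 51, 61, 60 and 59, 7.26 in T2KO and 7.43 and 7.29 in T1KO 99 and 65. The WT lines 6, 92, 7 and 94 had 7.53, 7.54, 7.30 and 7.24. Each DKO line was below its own WT partner, but DKO 51 was above both female WT lines, and the mean ratio was -0.24 ± 0.0625 (SE) with adjusted p = 0.0956. With median centring it was -0.24 with limma's adjusted p = 0.0492, or -0.45 relative to the median of all probes. Neil1, this probe and the brighter Mbd3 probe were below 0 in 4 of 4 pairs. With Mbd4, whose ratio in 51/6 rounds to 0.00 and was 0.01 and -0.02 on the repeat arrays, they were 4 of 14, against 16.9% of all probes. The brighter Mbd1 probe, A_55_P1971124 at chr18:74442279-74442338, varied by pair, with ratios of 0.50, -0.01, -0.64 and 0.12. Their mean of -0.01 had a wide 95% interval, 0.717-fold to 1.38-fold of WT, and without the pair 60/7, the pair with the feeder marker ratio of 0.91, it was 0.20; the part of feeder cells was not tested.

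For Mbd2 the probe A_66_P133043 at chr18:70785350-70785409 had levels of 9.94, 9.96, 9.54 and 9.89 in DKO lines 51, 61, 60 and 59 and 9.56 in T2KO. The T1KO lines averaged 10.02, with 9.93 in line 65, and the WT lines ranged from 9.85 to 10.07. DKO 60 and T2KO stood apart below the other lines. The mean DKO over WT ratio was -0.12 with adjusted p = 0.52, and it was 0.00 without the pair 60/7. On the second probe, A_55_P2036526 at chr18:70740406-70740465, DKO lines ranged from 9.76 to 9.85 and WT lines from 9.76 to 10.11, with a mean ratio of -0.11 and adjusted p = 0.389. T2KO over T1KO was -0.37 and -0.21 on the 2 probes. When normexp was fitted on all spots, these ratios were -0.05 and -0.02.

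Gadd45a, a stress-induced protein that has been linked to active DNA demethylation, had the widest range over the 11 lines of the 9 genes, at 1.39 on the log2 scale. Its probe at chr6:66985376-66985435 had levels of 11.87, 12.21, 12.24 and 12.38 in DKO lines 51, 61, 60 and 59 and 11.02 in T2KO. It had 12.41 and 11.88 in T1KO 99 and 65 and 11.88, 11.94, 11.37 and 12.24 in WT lines 6, 92, 7 and 94. T2KO was the lowest of the 11 lines and WT 7 the next. The DKO over WT ratios of -0.01, 0.26, 0.87 and 0.14 had a mean of 0.31 ± 0.155 (SE) with adjusted p = 0.266. The highest came from the pair 60/7, where the feeder markers had a median ratio of 0.91, and their part in it was not tested; without that pair the mean was 0.13.

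The largest Gadd45a differences involved the T2KO line. On the 2 arrays of T2KO 16 over T1KO 65 the ratio was -0.87 and -0.85, with a mean of -0.86 and adjusted p = 0.365. In the same pair the median ratio of the 10 ES cell markers was 0.51, with 8 of 10 above 0, and that of the feeder markers was -0.02; the part of these in the ratios of 16/65 was not tested. Male DKO over T2KO was 1.02 ± 0.191 (SE), or 2.02-fold, with adjusted p = 0.323 and a 95% interval of 1.43-fold to 2.86-fold. T2KO over male WT was -0.89 with adjusted p = 0.33. These comparisons share the single T2KO line, and its spread was taken from other lines. When normexp was fitted on all spots, T2KO over T1KO was -0.30.

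Apobec1 encodes the cytidine deaminase that edits apolipoprotein B mRNA. Its probe at chr6:122527908-122527967 had levels of 10.54, 10.57, 9.77 and 9.97 in DKO lines 51, 61, 60 and 59 and 10.62 in T2KO. It had 10.30 and 11.06 in T1KO 99 and 65 and 9.88, 10.48, 10.84 and 10.60 in WT lines 6, 92, 7 and 94. Both female DKO lines lay below both female WT lines, and both male DKO lines lay above both male WT lines. The share of all probes with such an order of levels within a sex was not counted. The ratios of 0.66, 0.08, -1.08 and -0.62 averaged -0.24 with adjusted p = 0.643. The pair 60/7, with its feeder marker ratio of 0.91, was again the most extreme; without it the mean was 0.04, and the part of feeder cells was not tested.

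**Figure D3:**
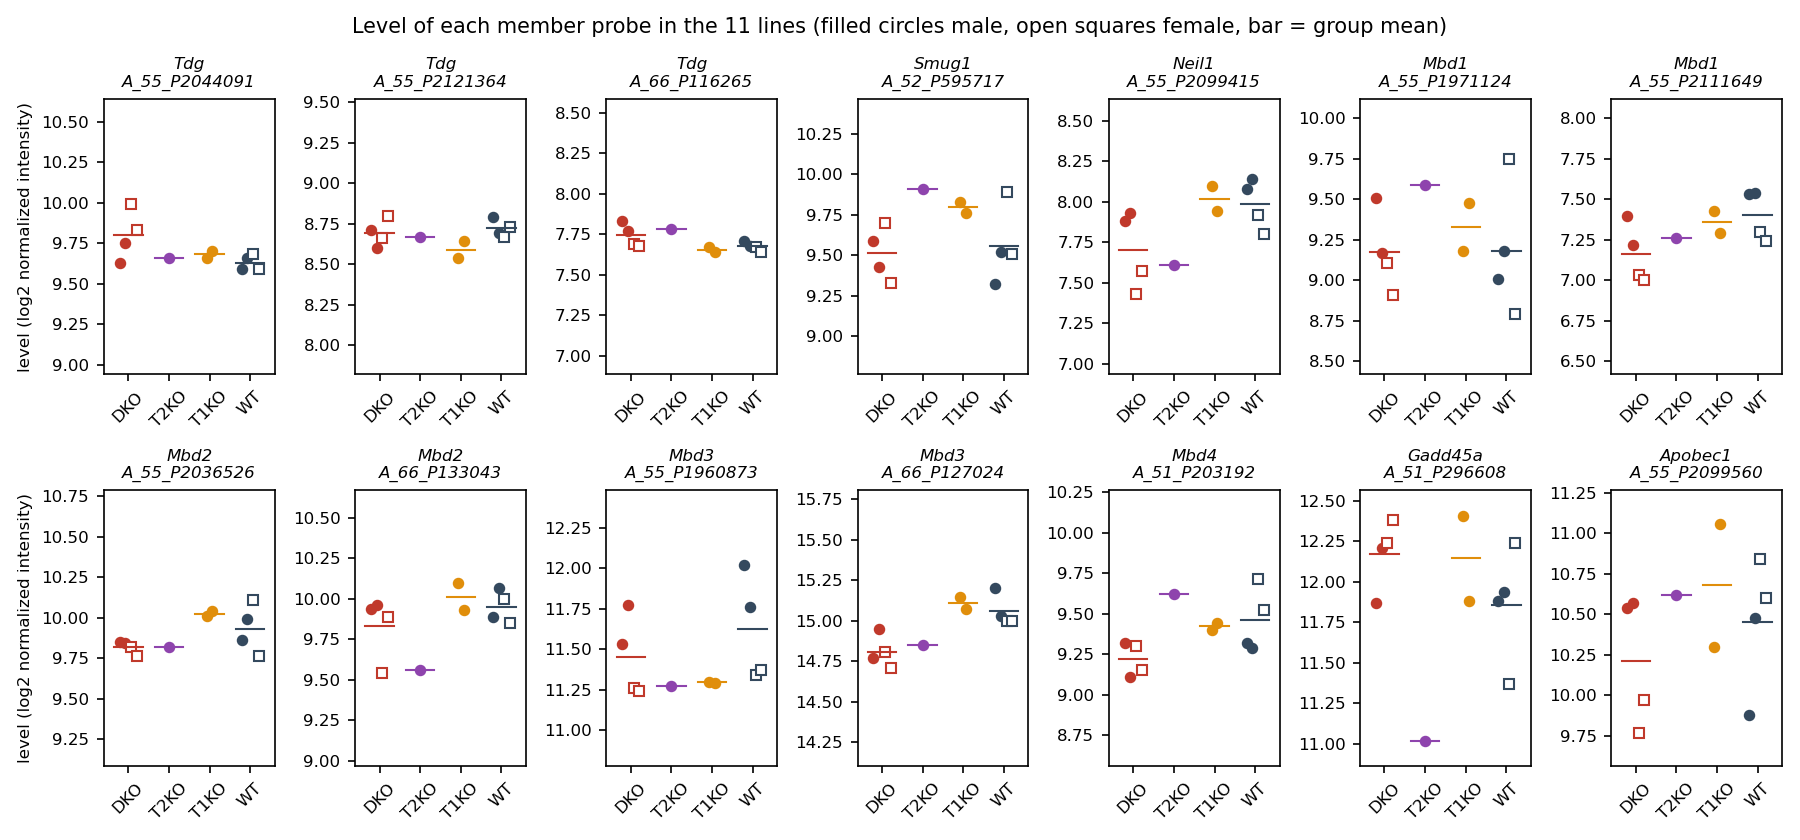
Normalized log2 level (vertical axis, each panel spanning the same range in log2 units) of the 14 tested probes in DKO, T2KO, T1KO and WT lines. Filled circles are male lines, open squares female lines and bars group means; on Mbd3 A_66_P127024 the 4 DKO lines lie below the 4 WT lines, and the T2KO line is lowest for Gadd45a at 11.02.

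The DKO effect was next compared between the sexes, whose pairs lay on different slides, so sex and slide cannot be told apart here. The mean ratio of the male pairs minus that of the female pairs was 1.22 ± 0.275 (SE) for Apobec1, with a male mean of 0.37 and a female mean of -0.85. This was the only one of the 14 with an unadjusted p under 0.05, against 5.09% of all probes, and its adjusted p was 0.834. In this comparison 0% of all probes passed the adjusted threshold, and the smallest adjusted p over all probes was 0.32. Male ratios above 0 with female ratios below 0 were found for Apobec1 alone among the 14 and for 4.14% of all probes. With each pair left out in turn, the Apobec1 difference ran from 0.93 (without 51/6) to 1.51 (without 61/92). Without 60/7, the pair with the feeder marker ratio of 0.91, it was 1.00. For Mbd4 the male mean was -0.09 and the female mean -0.39, with a difference of 0.29 and adjusted p = 0.834. For the other 12 probes the difference lay between -0.37 (Gadd45a) and 0.51 (Mbd1 A_55_P1971124). Both depended on single pairs: with each pair left out in turn the Gadd45a difference ran from -0.74 (without 59/94) to -0.01 (without 60/7), and that of the Mbd1 probe from 0.12 (without 60/7) to 0.89 (without 59/94).

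Comparisons that involve single knockouts had 1 or 2 lines on a side, and none of the 14 probes passed the threshold in any of them. They share lines with each other and with DKO over WT, so their values are given side by side. Tet1 loss with the dye cancelled also takes the effects of Tet1 loss and Tet2 loss as additive on the log scale, which was not tested. The share of all probes that passed was 0% for T2KO over T1KO, for Tet1 loss with the dye cancelled and for T1KO over male WT. It was 0.0193% (5 probes) for male DKO over T2KO and 0.0193% (5 probes) for T2KO over male WT. An unadjusted p under 0.05 was reached by 1 of the 14 probes in T2KO over T1KO (Gadd45a), against 12.7% of all probes, and by 1 of 14 in Tet1 loss with the dye cancelled (Gadd45a, 0.49), against 10.3%. It was reached by 1 of 14 in T1KO over male WT (Mbd3 A_55_P1960873), against 13.3%, and by 1 of 14 in male DKO over T2KO (Gadd45a), against 12.8%.

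T2KO over male WT held 4 of 14 probes at an unadjusted p under 0.05, against 16.0% of all probes. They were Mbd3 A_55_P1960873 (-0.62), Neil1 (-0.51), Mbd2 A_66_P133043 (-0.42) and Smug1 (0.50), with adjusted p between 0.209 and 0.306. Genotype, dye and slide cannot be told apart in this comparison. In T2KO over T1KO, on shared arrays and so on 1 slide, the same 4 probes gave -0.02, -0.33, -0.37 and 0.15. When normexp was fitted on all spots, they gave 0.12, -0.02, -0.05 and 0.05. With loess and all lines, Tdg stayed within 0.15 of 0 on each of its 3 probes in all 5 comparisons with a single knockout. With median centring its T2KO over T1KO ratios were 0.29, 0.26 and 0.22, where the median of all probes was 0.25. Over the alternatives, T1KO over male WT ran from -0.20 to -0.10 on Tdg A_55_P2121364.

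**Figure D4:**
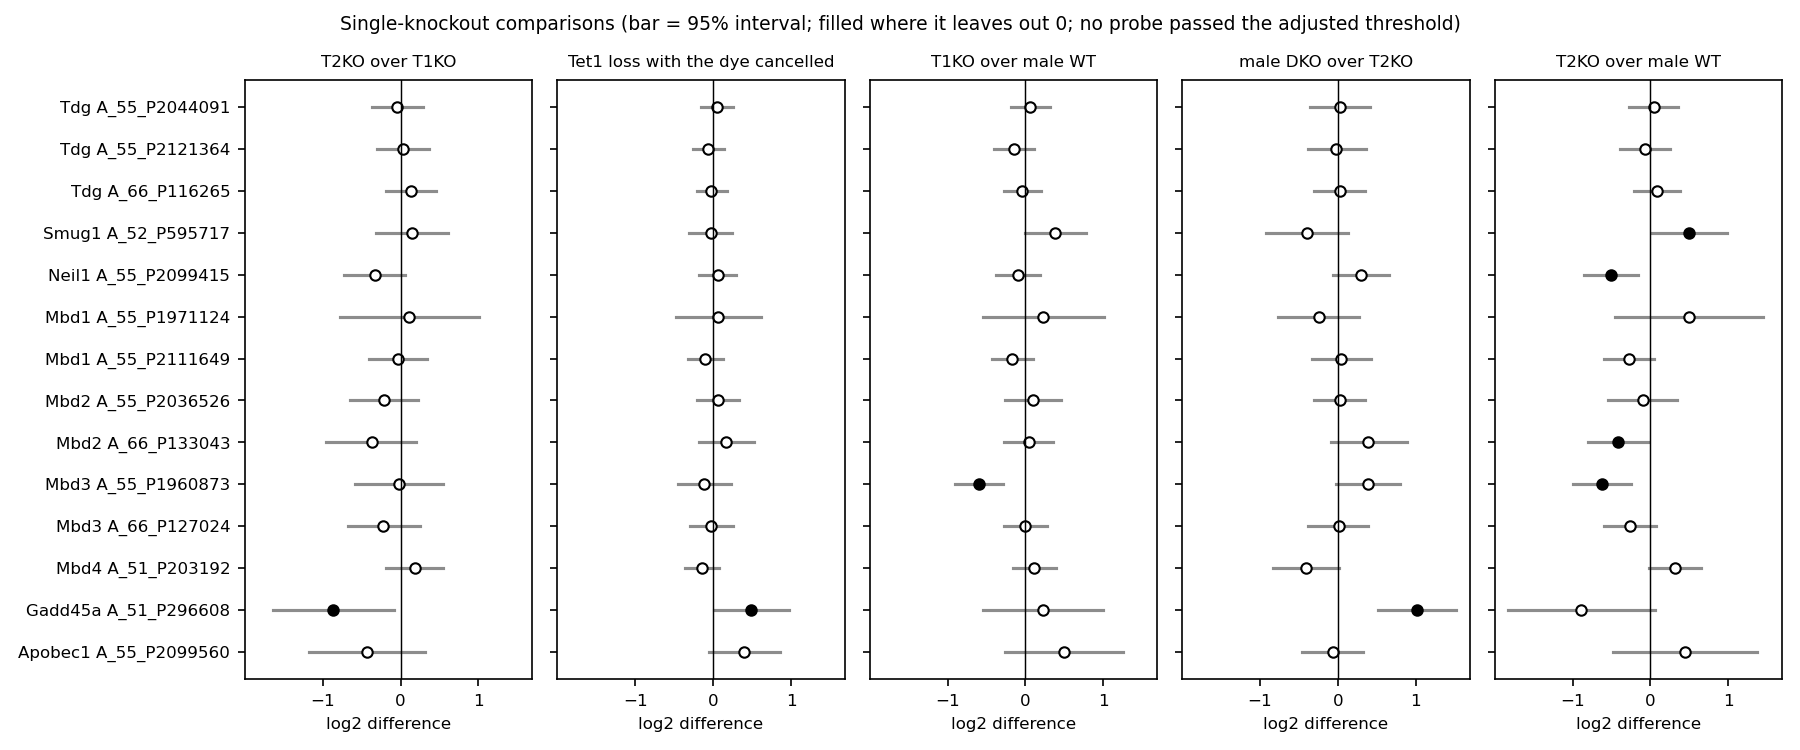
Log2 difference (horizontal axis) of the 14 tested probes in 5 comparisons that involve a single knockout line, with 95% intervals as bars and the point filled where the interval leaves out 0. Gadd45a is filled in 3 panels and Mbd3 A_55_P1960873 in 2, and no probe passed the adjusted threshold in any panel.

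Other genes of the same pathways were counted in 5 lists, with each gene's brightest tested probe. Over all tested probes 2.49% rose and 1.56% fell in DKO over WT. Among other methyl-CpG readers 9 of 11 genes were tested, 0 rose and 1 fell in DKO over WT, with a median ratio of 0.09. The gene that fell was Uhrf1, which recognises hemimethylated CpG after replication: its ratio was -0.40 with adjusted p = 0.0317, and levels were 14.52 to 14.67 in DKO lines against 14.90 to 15.07 in WT lines. T2KO had 14.65 and T1KO 99 and 65 had 14.97 and 14.78, so every labelled Cy5 level of this probe was below every Cy3 level. The other Uhrf1 probe gave -0.11. Among other DNA glycosylases all 7 genes were tested, 1 rose and 0 fell, with a median of -0.19. The riser was Ung, the main uracil glycosylase, at 0.52 (adjusted p = 0.0231), with ratios of 0.49 to 0.55 in the 4 pairs. All DKO lines (15.64 to 15.97) lay above all WT lines (15.09 to 15.49), a separation that 7.41% of all probes showed. T2KO had 15.52 and T1KO 99 and 65 had 14.88 and 15.16, so every labelled Cy5 level of Ung was above every Cy3 level. For Uhrf1 and Ung alike, the split cannot tell dye from Tet2 loss, and its share over all probes was not counted.

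The 12 genes of the steps after excision were all tested, 0 rose and 3 fell, with a median of -0.23. Apex1, the endonuclease that opens the strand at an abasic site, fell by 0.48 (adjusted p = 0.0328), with 13.15 to 13.50 in DKO lines against 13.57 to 13.99 in WT lines. Pcna, the sliding clamp of replication and long-patch repair, fell by 0.52 (adjusted p = 0.0299), with 15.27 to 15.43 in DKO lines against 15.82 to 15.96 in WT lines. For Pcna T2KO had 15.25 and T1KO 99 and 65 had 15.83 and 15.70, so every labelled Cy5 level was below every Cy3 level. For Apex1 this was not so, with 13.63 in T2KO and 13.49 in T1KO 65. The Pcna split cannot tell dye from Tet2 loss, and its share over all probes was not counted. All 4 DKO lines lay below all 4 WT lines on 5.86% of all probes. Of the 12 genes 8 had a ratio below 0.

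These 5 calls among 45 tested genes were lost with fewer pairs and changed with the normalization. Without the pair 51/6, 61/92, 60/7 or 59/94, 0 of the 45 passed in limma, with adjusted p of Ung, Uhrf1, Apex1 and Pcna between 0.0711 and 0.171; over all probes 0 then passed, with 4503 to 6048 at an unadjusted p under 0.05. The ratios themselves moved little: with each pair left out in turn they ran from 0.51 to 0.53 for Ung, from -0.41 to -0.40 for Uhrf1, from -0.51 to -0.44 for Apex1 and from -0.56 to -0.48 for Pcna. With median centring of arrays 23 of the 45 passed, as did 38.1% of all probes. Under it Ung was 1.16 and Apex1 -0.04, while Pcna (0.14) and Uhrf1 (0.17) turned positive. Relative to the median of all probes these 4 genes were at 0.94, -0.26, -0.08 and -0.05.

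All 12 genes of the NuRD complex were tested, and 0 rose and 0 fell, with a median of 0.05. Their ratios lay between -0.16 for Rbbp4 (adjusted p = 0.262) and 0.23 for Rbbp7 (adjusted p = 0.462), both histone-binding subunits. Among deaminases and the Gadd45 family 5 of 6 genes were tested, and 0 rose and 0 fell, with a median of 0.07. Apobec2, a muscle-enriched deaminase relative, had the highest ratio at 0.60 (adjusted p = 0.106), and Gadd45g, a paralogue of Gadd45a, the lowest at -0.40 (adjusted p = 0.347). The genes not tested were Mbd3l1, Mbd3l2 and Apobec4.

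Among the 9 genes Neil1 had the smallest p on a brightest probe, and the genes whose levels were most like it over the 11 lines were looked up among 16912 others. They were Hspb6 (Pearson r = 0.958), Lrrc46 (r = 0.954) and Gm6498 (r = 0.949). Their DKO over WT ratios were -0.45, -0.29 and -0.26, with adjusted p of 0.107, 0.101 and 0.102. The 11 levels share arrays in pairs and carry the dye of their channel, so these r values are descriptions of these lines.

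Repeat arrays of the same lines gave a view of the measurement itself. Over the 14 probes and the 3 repeated pairs, the 42 differences between repeat ratios had a median of 0.05, and the largest was 0.23 for Neil1 in the pair 59/94, whose repeats read -0.12 and -0.35. For Apobec1 the repeats were 0.70 and 0.62 in 51/6 and -0.69 and -0.56 in 59/94. The windows at the RefSeq start of 7 of the 9 genes (GRCm38.p6, 250 bases before to 50 after) held 9 CpG dinucleotides in Apobec1 to 26 in Tdg. The median was 17 for the 7 genes and 7 over 32851 windows, of which 94.6% held at least 1. Of all windows, 54.2% held fewer CpG than that of Apobec1 and 83.1% fewer than that of Tdg, so the 7 were not at the extreme. Mbd1 and Mbd2 were not among the 7.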

How the data were processed

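RNA of 11 labelled mouse ES lines was read on 10 arrays. The members and gene lists were chosen with earlier results of these data known. Per the file headers, the deposited mean and local background intensities come from Agilent Feature Extraction 10.1.1.1 without normalization; the deposited log10 ratios of Cy5 over Cy3 were background-corrected and dye-normalized by the same software. The authors' value table (31595 probes, 31539 matched) was near the log2 scale of Cy5 over Cy3: against the log10 ratios its columns had r of 0.925 to 0.971 and slopes of 2.78 to 2.93. How it was normalized and centred is not given in the sources used here. The medians of its columns were 0.00178, 0.00341, 0.00544, 0.00499, 0.00321, 0.00752, 0.00669, 0.00565, 0.00212 and 0.00685, and it held 9 of the 14 tested probes.

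Background was corrected with normexp (offset 50), with spots below local background (71 to 122 gene spots an array) kept out of the fit, a choice first made after gene values had been seen. Loess within arrays and Aquantile between arrays followed, in limma 3.58.1 on R 4.3.3 (jsonlite 2.0.0, the package data.table in version 1.17.8; plots with matplotlib 3.10.9). The excluded Cy5 sample of the T1KO 99 arrays entered normalization only. Control spots and outliers (173 to 337 per array) were left out. A probe was tested if well above background on all arrays of a group. Ratios of 4 pairs, or levels of single lines, were tested with limma's lmFit and eBayes, two-sided, with Benjamini-Hochberg adjustment over 25869 probes; female lines and, for T2KO over male WT, T1KO lines entered the level fits for spread only. The text names every member probe, Tet1 to Tet3, and from each list the genes past the threshold or else its highest and lowest. For 1 gene past the threshold the values are not reported here. A brightest probe stood for each list gene. Alternatives were the 2 other ratio sources, background and centring choices, filters, a sex covariate, a random block for pairs, another prior and leaving out each pair or line. Arrays and lines limit the precision.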

Additional observations from a re-analysis of the deposited data

Results flagged for a closer look

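In 42 groups of 4 values (ratios of the 4 pairs, and levels of the 4 DKO and of the 4 WT lines, for 14 probes), 3 groups held a value whose gap to its nearest neighbour was above Dixon's 95% critical share of the group's range. Chance gives about 1 such group in 20. The Neil1 ratio of the pair 60/7 was -0.49, against -0.24 to -0.21 in the other pairs. The level of Mbd2 A_66_P133043 in DKO 60 was 9.54, against 9.89 to 9.96 in the other DKO lines. The level of Mbd3 A_66_P127024 in WT 6 was 15.20, against 15.00 to 15.03 in the other WT lines.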

How the results depend on the processing

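Of 1023 values of single probes under alternatives, 999 kept their direction or moved by less than the spread. Median centring gave 1 reversal, Mbd3 A_66_P127024 in DKO over WT (0.33, adjusted p = 0.024), and 4 member calls in place of 0, the others being Tdg A_55_P2044091 (0.44), Gadd45a (0.67) and Mbd1 A_55_P2111649 (-0.24); under it the median of all probes was 0.21 and 91.3% of calls were higher in DKO, against 61.5%. No other alternative called a member probe. The 1046 calls in DKO over WT became 9850 with median centring, 1724 with a random block (51.7% higher), 537 in the value table, 189 with normexp on all spots, 7 with sex as a covariate, 0 with an intensity-dependent prior (6836 at an unadjusted p under 0.05) and 0 to 0 leaving out pairs; the scanner's ratios gave 73.3% higher. The 5 calls in the companion lists became 23 with median centring, 2 each in the value table, with normexp on all spots and in the scanner's ratios, 0 with sex as a covariate or the intensity-dependent prior, and 0 to 0 leaving out pairs. Tet1 loss with the dye cancelled gave 5 calls without the filter on dim probes, against 0. Male DKO over T2KO gave 1 call with normexp on all spots and 0 to 0 leaving out lines, against 5; T2KO over male WT gave 0 with normexp on all spots, 11 with the intensity-dependent prior and 0 to 8 leaving out lines, against 5. The cause was not tested. By replicate number, no paired analysis was possible because those numbers in the labels mark repeat arrays of the same lines; the DKO over WT test itself pairs lines within arrays.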
